A study of Mus musculus with 9 samples.

Results

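The voltage-gated calcium channel genes Cacna1c, Cacna1d, Cacna1g, Cacna1h, Cacnb2, Cacna2d1 and Cacna2d3 and the channel regulator gene Rrad were followed through a chromatin immunoprecipitation experiment (ChIP-seq) for the nuclear receptor NR4A2 in mouse heart ventricle. A region of the authors' table belonged to a gene when it touched the RefSeq span of that gene on build GRCm38, extended by 10 kb on either side. This rule uses position and no measured value, but the genes were chosen with earlier results of these data known. It took 36 of the 16884 regions, at 7 of the 8 genes. Cacna1g had none, like 49.04% of 21887 protein-coding genes.

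Hearts of 3 Nr4a2-icTg mice, here called NR4A2 mice, were compared with hearts of 3 littermates, here called control mice. NR4A2 mice carry a conditional Nr4a2 knock-in at ROSA26 (EGE-GJ-095) together with the Myh6-driven, tamoxifen-inducible Cre, αMHC-MerCreMer, so the transgene is switched on in cardiomyocytes. Control mice carry αMHC-MerCreMer, and no knock-in is named in their labels. Mice of both groups received 40 mg/kg tamoxifen in 1 injection at 8 to 9 weeks of age and were studied on day 3. The antibody was clone 9D12. Sex is not stated in the labels. Whole ventricle was used. A higher signal per cell and a larger share of cells with signal therefore cannot be told apart.

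Voltage-gated calcium channels open when the membrane depolarises and let calcium into the cell. In ventricular myocytes the L-type channel, with the pore Cav1.2 encoded by Cacna1c, carries the calcium current that triggers release from the sarcoplasmic reticulum and so starts contraction. The β subunit brings the pore to the membrane and tunes its opening, and the α2δ subunit lies mostly outside the cell and supports trafficking. Rad, the small GTPase encoded by Rrad, binds β subunits and restrains the current, and its release from the channel is part of the response to β-adrenergic stimulation. T-type channels, encoded by Cacna1g and Cacna1h, open at more negative voltages and are prominent in the fetal heart and in pacemaker cells.

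Signal is in CPM as scaled by the authors, and the CPM of all regions sum to totals that differ by at most 2.03% between libraries. How the scaling was set is not stated in the labels. At the depths of 549700 to 1035856 reads in regions, 1 read was worth 0.955 to 1.81 CPM. With totals this alike, a change common to all regions cannot be seen. Regions were called higher or lower at a Benjamini-Hochberg adjusted p under 0.05 over all regions in limma on log2(CPM + 1). All log2 fold changes are NR4A2 minus control on that scale, where the added 1 pulls weak regions towards 0. Of the regions at Nr4a2 itself 2 of 4 were called higher, led by a region (chr2:57111638-57112257) with 6.15, 7.79 and 25.3 CPM in control mice and 115, 81.97 and 74.4 CPM in NR4A2 mice, and at the ROSA26 locus 2 of 3 were higher. Cardiomyocyte marker genes had regions at 8 of 8 genes, 217 in all, with a median log2 fold change of 0.30. Of these 18 (8.29%) were higher and 4 (1.84%) lower, both below the shares of all regions, 14.7% and 3.17%. Markers of other cell types had regions at 4 of 4 endothelial, 3 of 5 fibroblast, 2 of 4 smooth muscle and pericyte, 1 of 4 immune, 1 of 2 adipocyte and 0 of 3 neuron genes. None of the 22 regions at these other markers was higher, and 2 of 13 endothelial ones were lower. These 22 regions are few to set beside the shares of all regions. A region at a gene is not its expression, and the part of other cell types in the values below was not tested.

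RefSeq (GRCm38.p6) listed transcription starts for 5 of the 8 genes, 9 in all. A region of the table touched the 250 bases before 3 of these starts: the outermost start of Cacna1c, an inner start of Cacnb2 and the start of Cacna2d1. A further region at Cacna1c touched the bases before the start of Dcp1b, a gene for a factor of mRNA decapping that overlaps Cacna1c and runs in the opposite direction. The region of Cacna1d nearest its outer start covered the bases before the start of Dcp1a, a related gene, in the same way (23 CpG). Shown are the 3 sequences of the channel genes and that of Dcp1b, which lies in the region that fell, each 5′ to 3′ on the strand of its gene and ending at the base before the start. CpG dinucleotides are in capitals, and they separate the starts into sparse and dense ones. The coordinates are, in the same order, chr6:119196410-119196659 (minus strand), chr2:14823842-14824091 (plus), chr5:15934441-15934690 (plus) and chr6:119175003-119175252 (plus).
Cacna1c: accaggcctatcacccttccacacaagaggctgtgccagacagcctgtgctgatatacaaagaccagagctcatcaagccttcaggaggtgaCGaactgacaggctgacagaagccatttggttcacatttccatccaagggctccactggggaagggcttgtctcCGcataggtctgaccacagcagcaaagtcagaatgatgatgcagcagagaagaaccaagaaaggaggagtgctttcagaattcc
Cacnb2: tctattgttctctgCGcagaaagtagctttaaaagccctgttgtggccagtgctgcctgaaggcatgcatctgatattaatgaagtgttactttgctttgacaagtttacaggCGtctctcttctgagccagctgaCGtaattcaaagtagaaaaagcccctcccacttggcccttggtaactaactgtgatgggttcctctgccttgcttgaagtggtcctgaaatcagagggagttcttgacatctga
Cacna2d1: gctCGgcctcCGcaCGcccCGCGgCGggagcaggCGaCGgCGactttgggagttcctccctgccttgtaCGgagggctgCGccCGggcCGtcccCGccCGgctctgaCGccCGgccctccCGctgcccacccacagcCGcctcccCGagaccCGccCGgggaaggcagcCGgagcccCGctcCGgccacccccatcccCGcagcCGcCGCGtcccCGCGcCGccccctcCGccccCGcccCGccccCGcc
Dcp1b: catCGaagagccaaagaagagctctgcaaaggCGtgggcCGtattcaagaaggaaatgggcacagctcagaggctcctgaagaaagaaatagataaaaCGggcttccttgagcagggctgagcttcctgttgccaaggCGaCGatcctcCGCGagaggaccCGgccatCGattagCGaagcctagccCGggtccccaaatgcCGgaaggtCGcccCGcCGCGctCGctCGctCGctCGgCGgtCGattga

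The stretches at Cacna1c and Cacnb2 held 2 and 3 CpG dinucleotides, against a median of 6 over all 32851 such stretches of 250 bases. Those at Cacna2d1 and Dcp1b held 36 and 23. The region lay over all 250 bases at Cacna1c, Cacna2d1 and Dcp1b and over 202 of them at Cacnb2. AAAGGTCA, the letters to which NR4A receptors bind as monomers, was in none of the 4 on either strand, and neither was AGGTCA, which it contains and which many nuclear receptors share. These letters were found in 1.34% and 14.02% of all such stretches. A match would be a description only, and its lack says only that the letters are not in these windows. CpG-dense starts without any region were the inner start of Cacna1c (48 CpG) and 1 start each of Cacna1d (50), Cacnb2 (30) and Cacna2d3 (30).

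Across the 36 regions, 7 were called higher and 3 lower in NR4A2 hearts. Among all regions 14.7% were called higher and 3.17% lower, and the members' shares were 19.4% and 8.33%. Because the genes were chosen with earlier results known, these shares are a description only. The higher regions lay at 4 genes, Cacna1c, Cacna1d, Cacna1h and Rrad, and the lower ones at Cacna1c and Rrad. The median log2 fold change of the members was 0.51, with 27 of 36 above 0. Over all regions it was -0.06, with 7653 of 16884 above 0. Most members were weak: 9 of 36 reached the median mean signal of all regions, 37.4 CPM, and per kb of region their median was 61.7 CPM against 84.7 CPM. Over the 8442 regions of at least that mean signal the median log2 fold change was -0.16. The part of weak signal in the members' median was not tested. All 3 NR4A2 mice lay above all 3 control mice in 9 members (25%, against 19.9% of all regions) and below them in 3 (8.33%, against 11.7%). Leaving out 1 mouse at a time gave 3 to 6 higher and 2 to 3 lower regions: 4 higher without NR4A2 mouse 1 or NR4A2 mouse 3 and 3 higher without control mouse 2. On recovered reads edgeR called 7 higher and 3 lower (15% and 3.22% of all regions), and DESeq2 called 5 and 3 (12.9% and 1.49%). The same 10 regions carry a call in the authors' deposited table, 7 up and 3 down, where 14.9% and 1.95% of all regions are called. With recovered reads left unscaled for depth, the 3 calls that remained were all gains: those of Cacna1c at 227 and 152 kb and that of Cacna1h.

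**Figure D1:**
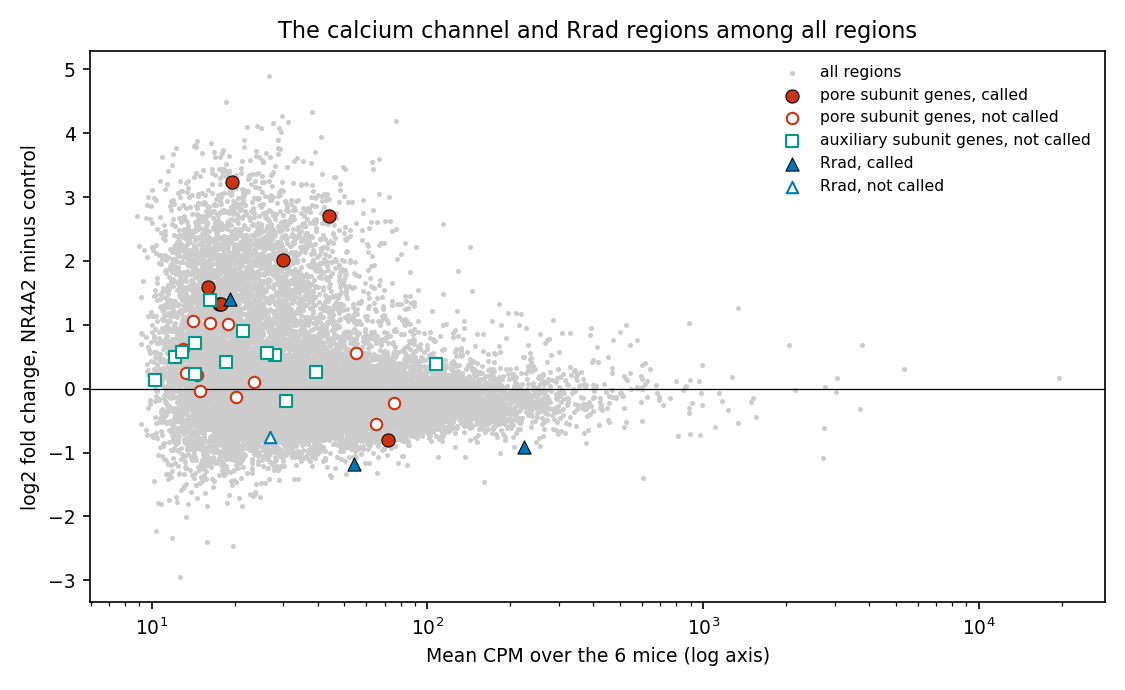
Mean CPM over the 6 mice (x axis, log scale) against log2 fold change, NR4A2 minus control (y axis), for all 16884 regions in grey and the 36 members in colour, filled where called. Of the 7 called gains 6 sit below the median mean signal of 37.4 CPM, while the called falls lie between 54.1 and 224 CPM.

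Among the pore subunits, 6 of 19 regions were called higher (31.6%) and 1 lower (5.26%), against 14.7% and 3.17% of all regions. The genes were chosen with earlier results known, so these shares are a description only. Cacna1c held 16 regions along its span of 610 kb (chr6:118587240-119197384, minus strand). Of these 4 were higher (25%) and 1 lower (6.25%), so most of the pore gains lay at this 1 gene. The strongest gain lay 227 kb inside the gene, counted as all such distances from the outermost listed start (chr6:118968816-118969335, 520 bp). Signal there was 15.4, 8.76 and 9.05 CPM in the 3 control mice and 55.4, 88.3 and 87.03 CPM in the 3 NR4A2 mice. Every NR4A2 mouse stood well above every control mouse. The log2 fold change was 2.70 ± 0.37 (SE, limma adjusted p = 1.57e-08), and it stayed called with each mouse left out, at 2.57 to 2.94. Among all regions of the table this one ranked above 57.1% in mean signal, so it was the only gain at these genes of at least median strength.

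A second gain of Cacna1c lay 152 kb inside the gene (chr6:119043899-119044364, 466 bp). Control mice had 15.4, 6.81 and 12.7 CPM and NR4A2 mice 48.7, 39.4 and 56.8 CPM. The groups did not overlap, with a log2 fold change of 2.02 ± 0.41 (SE, limma adjusted p = 8.61e-05) that also stayed called with each mouse left out. The other gains were smaller and rested on few reads. At 198 kb (chr6:118998437-118998725) signal was 9.22, 10.7 and 9.05 CPM in control mice and 33.4, 22.1 and 22.7 CPM in NR4A2 mice, which is 9, 11 and 5 reads against 35, 14 and 18. At 299 kb (chr6:118897153-118897389) it was 13.3, 8.76 and 7.24 CPM against 25.8, 23.6 and 26.5 CPM. NR4A2 mice were above control mice in both, with log2 fold changes of 1.32 ± 0.48 and 1.33 ± 0.48 (limma adjusted p = 0.0419 and 0.0435). These calls are marginal. The call at 198 kb ended with any mouse left out (adjusted p = 0.0626 to 0.186) and with DESeq2 (0.0543). The call at 299 kb ended without any mouse other than control mouse 1 (adjusted p up to 0.115), with edgeR (0.0555) and with DESeq2 (0.0803).

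The fall at Cacna1c lay 21.1 kb inside the gene (chr6:119174937-119175760, 824 bp), over the start of Dcp1b whose sequence is given above. Control mice had 93.2, 76.9 and 105 CPM and NR4A2 mice 44.9, 64.6 and 47.9 CPM. The groups did not overlap, and the log2 fold change was -0.80 ± 0.24 (SE, limma adjusted p = 0.0114). The call ended without NR4A2 mouse 1, NR4A2 mouse 3 or control mouse 3 (adjusted p = 0.0659, 0.0605 and 0.0567), and without trend and robust moderation (0.0803). Because this region touches the spans of both genes, it cannot be given to either.

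Along Cacna1c the regions formed a group of 7 within 22 kb of the outermost start, which all touch Dcp1b as well, and a group of 9 more than 100 kb inside, which touch no other protein-coding gene. Of the 9 inner regions 4 were higher and none was lower, against 14.7% and 3.17% of all regions. Summed over these 9, signal was 105.5, 85.6 and 104.98 CPM in control mice and 261, 259 and 306 CPM in NR4A2 mice. Summed over the 7 near the start, it was 239.8, 355 and 282 CPM in control mice and 259.7, 290.03 and 219 CPM in NR4A2 mice. The inner sums did not overlap between groups and the outer sums did. The split into 2 groups was made after the values were seen and was not tested. The other 5 inner regions, none of them called, had log2 fold changes of -0.03 to 1.06. The region over the outermost start (chr6:119196130-119196741) had 17.4, 63.3 and 63.4 CPM in control mice and 66.8, 69.4 and 50.5 CPM in NR4A2 mice, so the groups overlapped (log2 fold change 0.56 ± 0.34, limma adjusted p = 0.297). Control mouse 1 set this value, which was -0.038 without it. The region with the most signal at the gene lay 2.33 kb inside it (chr6:119193468-119194683), with 83.0, 121 and 48.9 CPM in control mice and 60.2, 75.7 and 66.8 CPM in NR4A2 mice (log2 fold change -0.23 ± 0.25, limma adjusted p = 0.594). No region touched the stretches before the inner starts of Cacna1c. The region at 198 kb also touches the non-coding gene Gm50599.

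**Figure D2:**
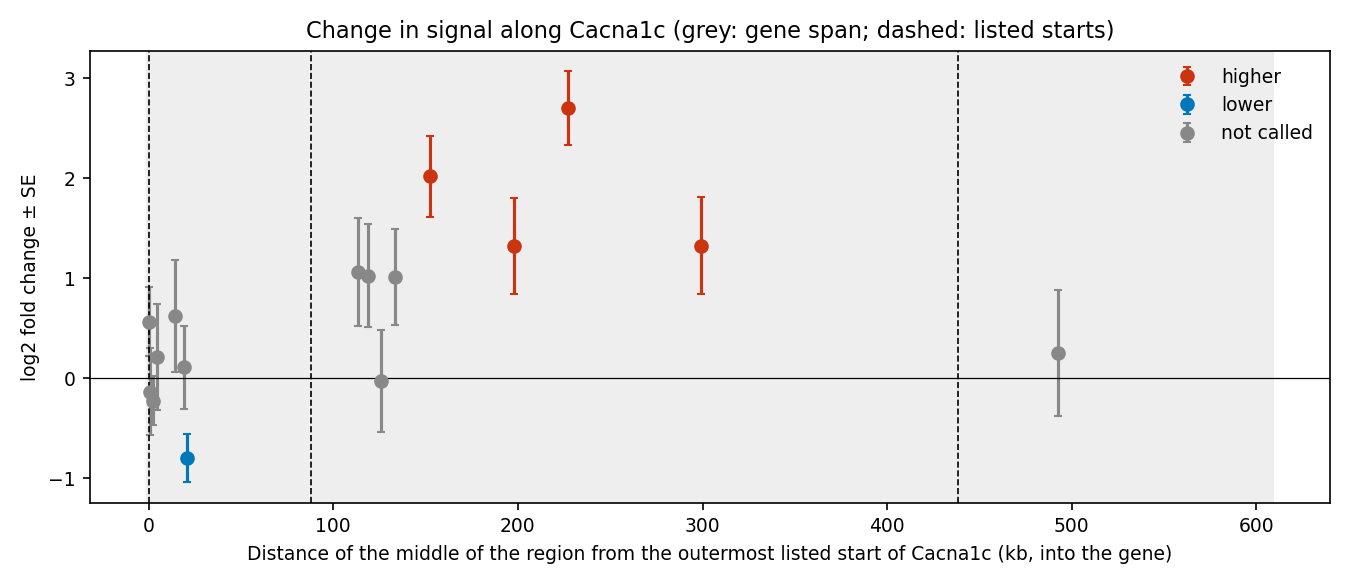
Log2 fold change with its SE (y axis) of the 16 regions of Cacna1c by the distance of their middle from the outermost listed start, in kb into the gene (x axis). The 4 higher regions lie 152 to 299 kb inside the gene span (grey), and the lower one at 21.1 kb, while the dashed lines mark the 3 listed starts.

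Cacna1d, which encodes Cav1.3, the L-type pore known from the sinoatrial node and atria, had 2 regions over 451 kb (chr14:30039941-30491156, minus strand). An inner region (chr14:30138512-30138867), 352 kb from the outermost start, had 9.22, 5.84 and 5.43 CPM in control mice and 15.3, 15.8 and 44.1 CPM in NR4A2 mice. The groups did not overlap, but NR4A2 mouse 3 was far above the other NR4A2 mice. The log2 fold change was 1.59 ± 0.56 (SE, limma adjusted p = 0.0352) and 1.11 without NR4A2 mouse 3, when the call ended (adjusted p = 0.297). It ended also without control mouse 2 or control mouse 3 (0.0718 and 0.0621). The other region (chr14:30479214-30479896) covers the start of Dcp1a, which overlaps the 5′ part of Cacna1d. It had 86.1, 56.5 and 88.7 CPM in control mice and 35.3, 58.3 and 64.3 CPM in NR4A2 mice. The groups overlapped there (log2 fold change -0.56 ± 0.26, limma adjusted p = 0.133).

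Of the T-type pores, Cacna1h had 1 region and Cacna1g none, the nearest region to Cacna1g being 20.99 kb from its span (chr11:94408391-94474400). The Cacna1h region (chr17:25408444-25408715, 272 bp) lies inside the gene, 27.6 kb from its nearer end. Control mice had 6.15, 5.84 and 0 CPM, which is 6, 6 and 0 reads, and NR4A2 mice had 27.7, 26.8 and 50.5 CPM, which is 29, 17 and 40 reads. A count of 0 in control mouse 3 allows up to 3 reads, or 5.43 CPM, by counting error alone. The groups did not overlap, and the log2 fold change was 3.24 ± 0.65 (SE, limma adjusted p = 8.67e-05). Without control mouse 3 it was 2.30 and still called, and edgeR on recovered reads gave 2.90.

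The 13 regions of the auxiliary subunit genes were all uncalled, with log2 fold changes of -0.19 to 1.39. Uncorrected p was under 0.05 in 1 of them, edgeR called 1 higher and DESeq2 none. These 13 are few to set beside the shares of all regions, 14.7% higher and 3.17% lower. Cacnb2, which encodes the main β subunit of the heart, had 3 regions over 385 kb (chr2:14603861-14988811, plus strand). They lie at and behind an inner start, 219.9 kb or more from the outermost one, and none lay at the outermost. The region over the inner start (chr2:14823890-14824509) had 37.9, 37.96 and 30.8 CPM in control mice and 46.8, 31.5 and 51.7 CPM in NR4A2 mice, with overlapping groups (log2 fold change 0.26 ± 0.32, limma adjusted p = 0.647). The region with the smallest p at the gene (chr2:14834708-14835083) had 28.7, 23.4 and 16.3 CPM against 24.8, 40.98 and 34.1 CPM (0.53 ± 0.38, adjusted p = 0.372).

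Cacna2d1, which encodes the α2δ-1 subunit of the cardiac channel, had 3 regions over 440 kb (chr5:15934264-16374511, plus strand). The region over its CpG-dense start (chr5:15934430-15934829) had 23.6, 27.3 and 48.9 CPM in control mice and 34.4, 28.4 and 21.4 CPM in NR4A2 mice. These values overlapped throughout (log2 fold change -0.19 ± 0.36, limma adjusted p = 0.781), and the sign turned without control mouse 3 (0.12). The region with the smallest p (chr5:16317562-16317778) had 6.15, 8.76 and 18.1 CPM against 21.01, 20.5 and 11.4 CPM (0.71 ± 0.54, adjusted p = 0.415).

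Cacna2d3, a gene for another α2δ subunit, had 7 regions over 818 kb (chr14:28904943-29722775, minus strand), all 679 to 702 kb from its start and all within 10 kb of Lrtm1, a gene for a leucine-rich repeat protein that lies inside Cacna2d3. Of these 5 touch Lrtm1 itself, so the signal cannot be given to Cacna2d3 alone. The strongest (chr14:29031344-29033195, 1852 bp) had 122, 85.6 and 63.4 CPM in control mice and 116, 186 and 69.4 CPM in NR4A2 mice, and the groups overlapped (log2 fold change 0.39 ± 0.29, limma adjusted p = 0.419). It was 0.75 and called without NR4A2 mouse 3 (adjusted p = 0.0495) and 0.044 without NR4A2 mouse 2. The one with the smallest p (chr14:29042542-29042832) had 11.3, 2.92 and 12.7 CPM against 21.96, 12.6 and 36.6 CPM. Its log2 fold change of 1.39 ± 0.55 did not pass in limma (adjusted p = 0.0693), while edgeR on recovered reads called it higher (adjusted p = 0.0448) and DESeq2 did not (0.108). Without NR4A2 mouse 2 or control mouse 3 it passed in limma (0.0318 and 0.0324).

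Rrad, the regulator, is a short gene of 3.28 kb (chr8:104628070-104631350), and its regions cover most of it. It had 4. Of these, 2 were lower and 1 was higher, against 3.17% and 14.7% of all regions. The longest (chr8:104627209-104629871, 2663 bp) crosses the lower-numbered end of the gene. Control mice had 365, 212 and 309.5 CPM there and NR4A2 mice 155, 136 and 169 CPM. It was the strongest of the 36 regions, above 97.98% of all regions in mean signal, and the groups did not overlap. The log2 fold change was -0.91 ± 0.17 (SE, limma adjusted p = 3.40e-05), and the region stayed lower with each mouse left out, at -1.13 to -0.75. Without trend and robust moderation the call ended (adjusted p = 0.0636).

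The second fall (chr8:104630851-104631349, 499 bp) ends 1 bp inside the other end of the gene. Control mice had 86.1, 66.2 and 74.2 CPM and NR4A2 mice 35.3, 31.5 and 31.5 CPM, with a wide gap between the groups. The log2 fold change was -1.17 ± 0.28 (SE, limma adjusted p = 0.000905) and it stayed called with each mouse left out. Per kb this region had 108 CPM on average, the most of all 36. Between them lies a weaker region (chr8:104630198-104630626) with 43.03, 22.4 and 36.2 CPM in control mice and 21.01, 25.2 and 12.6 CPM in NR4A2 mice, where the groups overlapped (log2 fold change -0.76 ± 0.40, limma adjusted p = 0.189). Strand and start of Rrad are not in the tables used, so neither end is named as the promoter here. All 4 regions are within 10 kb of Ciao2b, and 3 of them of Cdh16, but none touches either gene. The longest region also touches the non-coding gene Gm51588.

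The gain at Rrad lay 5.35 kb outside the gene (chr8:104636697-104637008, 312 bp), and this region started weak. Control mice had 13.3, 7.79 and 9.05 CPM and NR4A2 mice 33.4, 18.9 and 32.8 CPM, without overlap (log2 fold change 1.40 ± 0.47, limma adjusted p = 0.0266). The call ended without NR4A2 mouse 1, NR4A2 mouse 3 or control mouse 2 (adjusted p = 0.126, 0.120 and 0.0830).

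**Figure D3:**
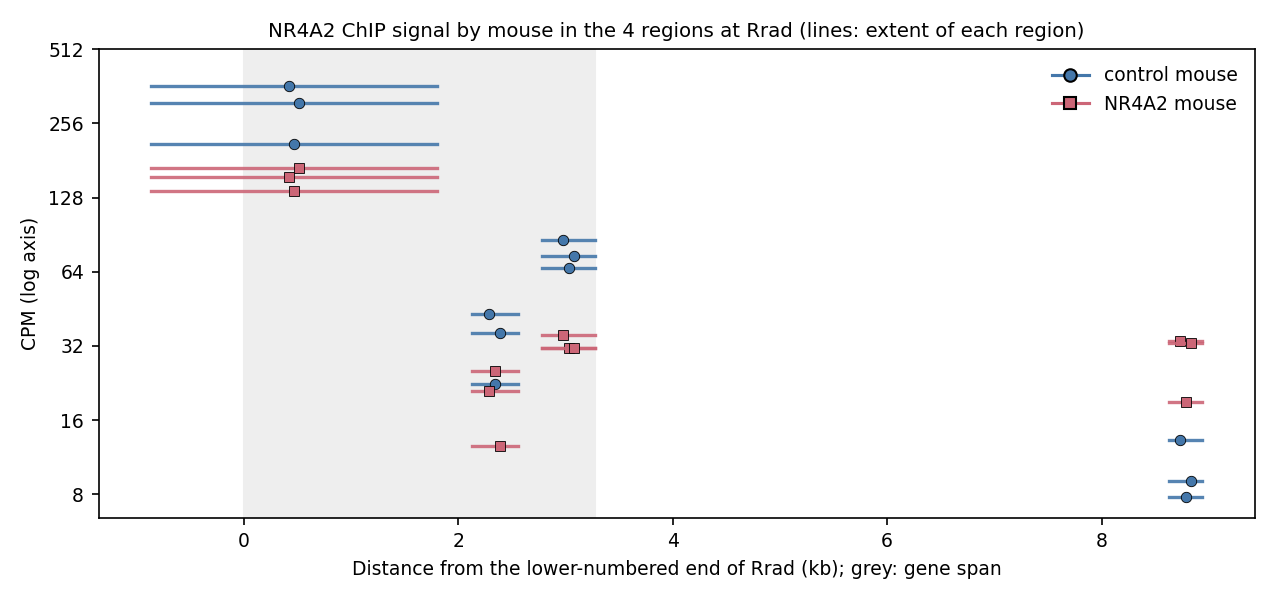
CPM by mouse (y axis, log scale) in the 4 regions at Rrad by distance from the lower-numbered end of the gene in kb (x axis), with lines for the extent of each region and the gene span in grey. Control mice lie above NR4A2 mice in the regions at either end of the gene, the groups overlap in the region between, and NR4A2 mice lie above control mice in the region 5.35 kb outside.

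The starting signal and place of the called members were as follows. The 7 higher regions had control means of 4.00 to 11.6 CPM, reached means of 25.1 to 76.9 CPM with NR4A2, and were 237 to 520 bp long. Of them 6 lay inside a gene, as did 2 of the 3 lower ones, and none touched another protein-coding gene. The 3 lower regions had control means of 75.5 to 295 CPM and kept 32.8 to 153 CPM in NR4A2 hearts. The whole table shows the same contrast, with a median control level of 9.70 CPM in higher and 95.8 CPM in lower regions. The control values also enter the calls, so this contrast is not a result separate from them. None of the 7 higher regions touched a listed promoter window (250 bases before to 50 after a start), against 3.88% of the 2475 higher regions of the whole table. Of the 3 lower ones 1 did, against 52.1% of the 536 lower regions, and of the 26 uncalled ones 4 did, against 43.9%. The window touched by the lower region is that of Dcp1b. No start was listed for Rrad or Cacna1h, so their regions had no window of their own gene to touch. This concerns the 4 regions of Rrad, 1 of them uncalled, and the 1 region of Cacna1h. The part of the missing starts in the members' shares was not tested, and no test was made of the shares.

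**Figure D4:**
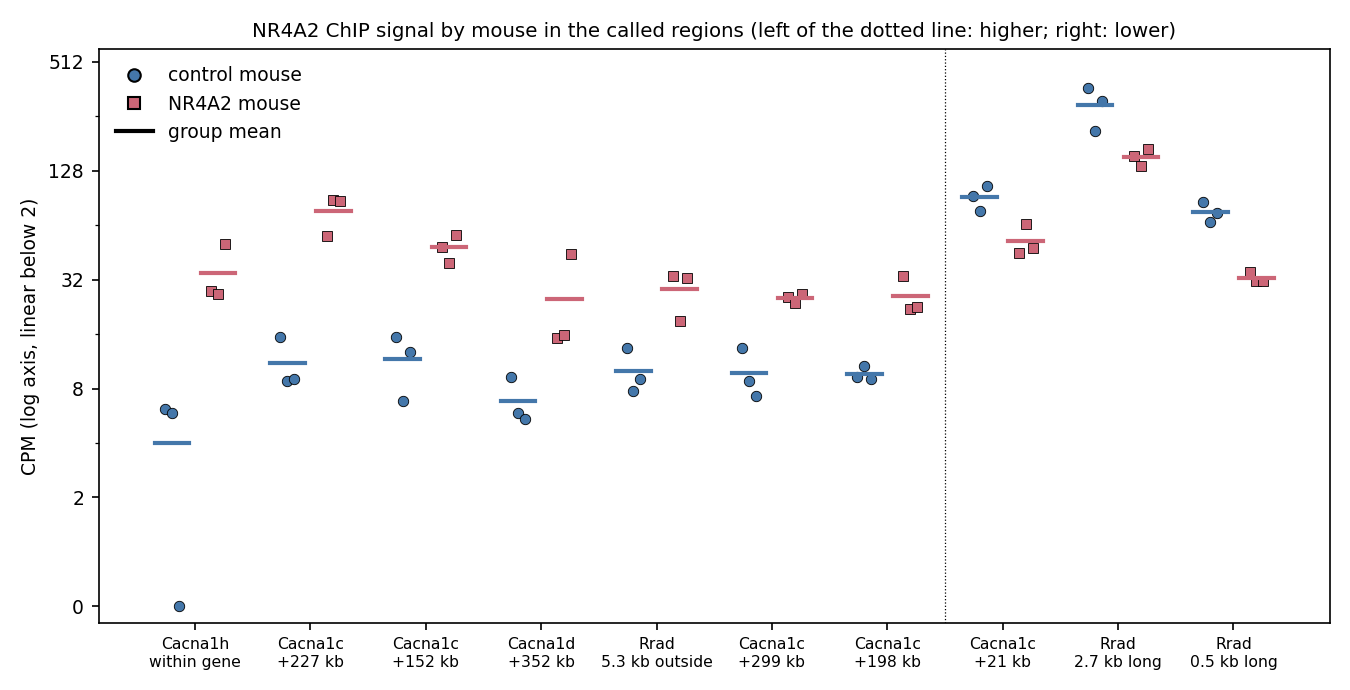
CPM in each of the 6 mice (y axis, log scale above 2) for the 10 called regions, with short lines for group means, ordered by log2 fold change. Labels give the distance into the gene from the outermost listed start where a start is listed, and otherwise the place or length of the region. NR4A2 mice lie above control mice in the 7 regions left of the dotted line and below them in the 3 on its right.

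Adding up the regions of each gene gives 1 value per mouse. Tested over all 11155 genes with a region, 6.95% were called higher and 3.15% lower. Among the 7 genes here 3 were higher and 1 lower. These genes were chosen with earlier results known and hold 1 to 16 regions each, so the counts are a description only. Rrad fell, from 507, 309 and 429 CPM in control mice to 244, 211 and 246 CPM in NR4A2 mice (log2 fold change -0.80 ± 0.15 SE, limma adjusted p = 0.000216). Its total includes the region that gained. Without trend and robust moderation this call ended (adjusted p = 0.0750). Cacna1h has a single region, so its total repeats the value above (adjusted p = 0.000837 in this fit).

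Cacna1c rose from 345, 441 and 387 CPM to 520.4, 549 and 526 CPM (0.45 ± 0.12 SE, limma adjusted p = 0.0157), with all NR4A2 mice above all control mice. The call ended without control mouse 1 (adjusted p = 0.107) or NR4A2 mouse 2 (0.0538). This Cacna1c total includes the 7 regions that also touch Dcp1b. They held 239.8, 355 and 282 CPM in control mice and 259.7, 290.03 and 219 CPM in NR4A2 mice. Cacna2d3 rose from 209, 159 and 141 CPM to 225, 326 and 216 CPM (0.58 ± 0.17 SE, limma adjusted p = 0.0185) although no region of it was called. The 7 regions of Cacna2d3 also make up the total of Lrtm1. This call ended without NR4A2 mouse 2 (0.40, adjusted p = 0.162), control mouse 2 (0.0751) or control mouse 3 (0.0932), and the calls at Cacna1c and Cacna2d3 both ended without trend and robust moderation (adjusted p = 0.173 and 0.205). With reads unscaled for depth, Cacna1h alone of the 7 totals was called.

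Totals of the remaining genes did not pass. Cacnb2 had 81.97, 73.97 and 56.1 CPM in control mice and 90.7, 96.2 and 92.1 CPM in NR4A2 mice, which did not overlap (log2 fold change 0.41 ± 0.21, limma adjusted p = 0.232). Cacna2d1 had 44.1, 44.8 and 74.2 CPM against 72.6, 63.1 and 44.1 CPM (0.15 ± 0.27, adjusted p = 0.767), and Cacna1d 95.3, 62.3 and 94.1 CPM against 50.6, 74.1 and 108 CPM (-0.15 ± 0.24, adjusted p = 0.744). Most of the Cacna1d total in each mouse came from the region over the start of Dcp1a. Per kb of region the order in control hearts was Rrad (106 CPM per kb), Cacna1d (80.8), Cacna2d1 (65.2), Cacnb2 (56.9), Cacna1c (56.1), Cacna2d3 (44.6) and Cacna1h (14.7). In NR4A2 hearts it was Cacna1h (129), Cacna1c (76.2), Cacnb2 (74.9), Cacna1d (74.8), Cacna2d1 (71.9), Cacna2d3 (67.3) and Rrad (59.9). Rrad was first in each control mouse, and Cacna1h was last in each control mouse and first in each NR4A2 mouse. The Cacna1h value rests on 1 region of 272 bp with 6, 6 and 0 reads in control mice. Its places therefore repeat the gain of that region and are no separate result. The last place of Rrad in NR4A2 hearts lies within the spread: it had 62.6, 54.1 and 63.0 CPM per kb in the 3 mice, against 59.3, 85.8 and 56.7 for Cacna2d3. So does the middle of the order, with Cacna1c, Cacnb2, Cacna1d and Cacna2d1 between 71.9 and 76.2 CPM per kb in NR4A2 hearts.

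**Figure D5:**
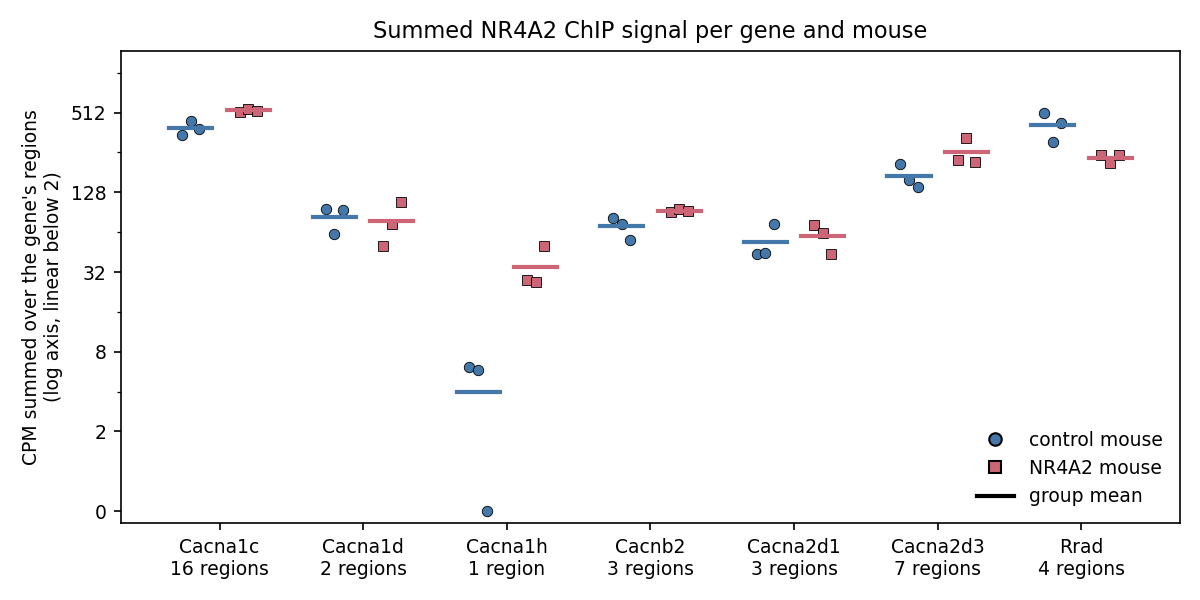
CPM summed over the regions of each gene (y axis, log scale above 2) in each of the 6 mice for the 7 genes with a region, with short lines for group means. Groups do not overlap at Cacna1c, Cacna1h, Cacnb2, Cacna2d3 and Rrad, with Rrad alone lower in NR4A2 mice. Of these Cacnb2 was not called, and the share of all genes without overlap is not given here.

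Further genes of the pathway came from a list of 49: other channel subunits, other GTPases of the Rad family, channel partners, kinases and their anchors, calcineurin, β-adrenergic receptors, and genes of the T-tubule. A region was present at 29 of them, 80 in all, with 7 higher (8.75%) and 6 lower (7.5%) and a median log2 fold change of -0.14. Over all regions the shares were 14.7% and 3.17% and the median was -0.06. Of 19 other channel subunit genes 5 had a region, and 1 of their 8 regions was higher, at Cacng4, a γ subunit gene (chr11:107745373-107745659). Signal there was 0, 5.84 and 5.43 CPM in control mice and 34.4, 40.98 and 49.2 CPM in NR4A2 mice (log2 fold change 3.58 ± 0.61 SE, limma adjusted p = 5.40e-06).

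In the regulatory group, 6 of 38 regions at 12 genes were higher (15.8%) and 2 lower (5.26%). The share of gains is near the 14.7% of all regions, and 3.17% of all regions were lower. Akap7, an anchor of protein kinase A, went from 6.30 ± 3.73 to 50.6 ± 20.1 CPM (SD, n = 3) at a region inside the gene (chr10:25191990-25192312, limma adjusted p = 2.49e-06). A region outside Adrb1, the main β-adrenergic receptor gene of the heart (chr19:56717462-56717873), went from 12.1 ± 5.74 to 56.6 ± 27.5 CPM (SD, n = 3, limma adjusted p = 3.04e-05). Another region near that gene was lower (-1.01 ± 0.38). The call of this second region ended without any mouse other than NR4A2 mouse 3 (adjusted p up to 0.167), with edgeR (0.0618) and with DESeq2 (0.0923). The remaining named gains were at Camk2g, which encodes a CaMKII subunit (log2 fold change 1.84 ± 0.55 SE), Ppp3ca, which encodes a catalytic subunit of calcineurin (1.81 ± 0.53), and Akap6, which encodes a perinuclear anchor of protein kinase A (1.34 ± 0.40). These calls ended at Camk2g without NR4A2 mouse 3 or control mouse 2 (adjusted p = 0.130 and 0.0659), at Ppp3ca without NR4A2 mouse 1 (0.0849) and at Akap6 without NR4A2 mouse 2 (0.0697).

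Of 24 regions at partners of the channel 2 were lower (8.33%) and none higher, against 3.17% and 14.7% of all regions. The lower ones were at genes that each encode calmodulin, which binds the pore. Calm3 went from 235 ± 30.1 to 153 ± 19.9 CPM and Calm2 from 541 ± 97.7 to 373 ± 10.4 CPM (SD, n = 3, limma adjusted p = 0.00579 and 0.00770). The call at Calm2 ended without control mouse 3 (adjusted p = 0.0753), and both ended without trend and robust moderation (0.143 and 0.214). The other GTPase genes of the Rad family, Rem1, Rem2 and Gem, had 4 regions in all, none higher and 1 lower. The lower one was at Gem (log2 fold change -1.10 ± 0.40 SE, limma adjusted p = 0.0425), which was named after its value was seen. That call ended without any mouse other than NR4A2 mouse 2 (adjusted p up to 0.188), with edgeR (0.0506) and with DESeq2 (0.0725). Of 9 regions at T-tubule genes, all at 1 of the 3 genes, 1 was lower and none higher. Groups of 24, 4 and 9 regions are too small to set beside the shares of all regions.

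For the leading regions of Cacna1c and Rrad, the closest regions of the table over the 6 mice were looked up by Euclidean distance of log2(CPM + 1). Nearest to the Cacna1c gain at 227 kb was a region at Stk33 and Trim66 (distance 0.504, chr7:109442646-109443089), followed by a region with no protein-coding gene within 10 kb (0.625, chr6:52692512-52693109) and one near Tnfsf13b (0.667, chr8:10040795-10041581). Nearest to the long Rrad region were regions at Ppp1cc (0.488), at Fabp3 and Zcchc17 (0.546) and at Cdkl3 and Ube2b (0.697). The first 3 were called higher and the last 3 lower. Likeness over 6 values in a table of this size is a description and carries no test.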

How the data were processed

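NR4A2 ChIP-seq signal was analysed in 6 of the 9 samples of the series, 3 control and 3 NR4A2 hearts from separate mice. The antibody test samples and the pooled input were not analysed here. The authors deposited CPM per mouse in 1 table of regions. Reads could be recovered from them, since 100% of the CPM came out as whole reads to within 0.001 read. BWA and GRCm38 (mm10) are named in the submitters' processing notes. The sources used here do not name the peak caller, the merging of regions, the counter or any use of the fly spike-in for scaling. The deposited log2 fold change and the deposited p-value and FDR are the authors' and were used only where named.

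Regions were tested with limma 3.58.1 (R 4.3.3) with trend and robust moderation on log2(CPM + 1), genotype being the only term, over all 16884 regions and, for sums per gene, over 11155 genes (protein-coding, and the ROSA26 locus). No region was filtered out. The script was tested on simulated data. Recovered reads were tested with edgeR 4.0.16 and DESeq2 1.42.0 as alternatives. The genes and lists were chosen with earlier results of these data known. Named were all called regions of each gene, the region with the most signal, the region with the smallest p where none was called, and from the pathway list the called region with the smallest adjusted p of 8 genes. Mouse numbers did not pair the mice.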

Additional observations from a re-analysis of the deposited data

How the results depend on the processing

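Member regions numbered 7 higher and 3 lower. They were 1 and 3 with only regions of at least median mean CPM tested (9 members), 3 and 0 with no scaling for depth, and 7 and 1 with limma without trend or robust moderation. Leaving out 1 mouse gave 3 to 6 and 2 to 3. With no scaling, 99.01% of all calls in the table were higher, against 82.2%, with 67.2% under the median filter and 94.4% without trend or robust moderation. The pathway list, 7 higher and 6 lower, gave 0 and 3 with the median filter, 3 and 0 with no scaling, 3 lower with DESeq2, 13 higher with assignment within 50 kb, and 5 to 7 and 3 to 4 with 1 mouse left out. Sums per gene, 3 higher and 1 lower, gave 1 and 0 without trend or robust moderation and 1 and 0 with no scaling, and 1 to 3 and 1 to 1 with 1 mouse left out. The cause of these shifts was not tested, other than fewer regions tested under the filter.

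Assignment within 0 or 50 kb and leaving out regions that touch another gene, the last chosen after seeing the data, stayed within 1.5 times of the member counts. Signs turned without control mouse 2 at the Cacna1c region with the most signal (log2 fold change -0.57 to 0.077 with 1 mouse left out), without control mouse 1 at the outermost Cacna1c start (-0.038 to 0.86), without control mouse 3 at the Cacna2d1 start (-0.39 to 0.12), and for the Cacna1d sum without NR4A2 mouse 1 (-0.42 to 0.12) and with edgeR (0.00914). None of these was called. With the replicate block, 7 member regions were higher and 3 lower. Same-numbered mice shared only a number: their deviations correlated at -0.07, 0.06 and 0.03, not every mouse correlated best with its own number, and no call among the named regions and sums changed with the block. Of the 10 called regions 8 were called by limma, edgeR and DESeq2 alike, and 5 with each mouse left out in turn. A count of 0 allows 3 reads, or 2.86 to 5.43 CPM, by counting error alone, so control levels of the weaker gains are near what depth resolves.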
